A study of Mus musculus with 46 samples.

Results

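H3.3 was followed in 4 ChIP-Seq libraries of sorted fractions from the unsuccessful route of reprogramming, as the study names it, out of 16 H3.3 libraries and 46 samples. They were chosen by their names alone: D6T+, D9T+, D12S- and D16S-, taken in the order of days 6, 9, 12 and 16. Mouse embryonic fibroblasts (MEFs) from mid-gestation embryos with an EGFP reporter at the Oct4 gene were infected with pMXs retroviruses for Sox2, Klf4, Oct4 and c-Myc. They were grown without feeder cells in a medium with LIF, bFGF, ascorbic acid, N-2 and CHIR99021, and all fractions of the course shared these viruses and agents. On days 6 and 9 the cells that kept the fibroblast surface protein Thy-1 were sorted (Thy-1+), and on days 12 and 16 the cells that lacked the pluripotency-associated antigen SSEA-1 (SSEA-1-). These are the fractions the study calls unsuccessful, while the labels give the sort and not the later fate of the cells. D0 was the fibroblast population before infection, D6T-, D9T-, D12S+ and D16S+ were the opposite sorts of the same days, and fully converted iPSCs and the embryonic stem cell line ESD3 served as references. Each fraction is a mixture of cells, so fewer cells with H3.3 at a gene and less H3.3 per cell cannot be told apart. Each sample was 1 library, so no difference below has a replicate check and no test was made. Between D9T+ and D12S- the sort marker changed together with the day, and the effect of time and of the sort cannot be told apart at that step.

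H3.3 is the histone H3 variant that is placed in chromatin outside of DNA replication. The chaperone Hira brings it to transcribed genes, promoters and enhancers, while Atrx and Daxx place it at repeats and silent heterochromatin. Because it follows turnover of nucleosomes, H3.3 over a gene body is usually taken as a mark of recent transcription, and fibroblast genes are among the genes it covers in MEFs.

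The 4 libraries held 20.5 to 27.3 M tags. Peaks on the autosomes, X and Y numbered 60618, 64108, 87427 and 65376 in day order. The D12S- library stood apart: 21.96% of its tags lay in peaks, against 10.93% to 12.21% in the other libraries, and its peaks covered 141 Mb against 69.9 to 77.5 Mb. It held 1089 peaks longer than 10 kb, against 212 to 235. The score of a peak is its Normalized Tag Count, the ChIP tags in the peak per 10 M tags of the library. The lowest score of any peak was between 4.94 and 5.59, so a missing peak means that a region stayed under the calling limit of that library, not that H3.3 was absent. The counts of kept peaks, regions, bound genes and listed genes were therefore repeated with the same number of top-scoring peaks, 60618, from each library. Score ratios between libraries and motif shares used all peaks. So did the scores, lengths and genomic locations of kept, lost and gained peaks.

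The kinds of region described below can be seen in the following windows of 300 bases of build mm9, given on the plus strand. For regions kept in all libraries, lost by D16S- and gained by D16S-, the strongest intronic or intergenic peak with an AP-1 motif (TGANTCA, in capitals) in its central window was shown. AP-1 is the factor of Fos and Jun proteins that occupies enhancers of fibroblasts.
Ywhag intron, kept in all 4, chr5:136394241-136394540: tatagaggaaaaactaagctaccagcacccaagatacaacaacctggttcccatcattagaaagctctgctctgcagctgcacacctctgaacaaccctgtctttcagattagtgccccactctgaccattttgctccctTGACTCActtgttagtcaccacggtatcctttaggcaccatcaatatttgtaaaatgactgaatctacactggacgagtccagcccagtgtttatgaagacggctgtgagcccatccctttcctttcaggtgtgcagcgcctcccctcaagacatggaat
Between genes, nearest start Gm8138, lost, chr14:44106422-44106721: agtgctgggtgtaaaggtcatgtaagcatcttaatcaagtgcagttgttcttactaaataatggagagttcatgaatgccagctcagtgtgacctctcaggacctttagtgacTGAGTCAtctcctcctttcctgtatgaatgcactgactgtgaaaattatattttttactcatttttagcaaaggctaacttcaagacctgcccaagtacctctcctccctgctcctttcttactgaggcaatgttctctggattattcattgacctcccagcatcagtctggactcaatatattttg
Pou5f1 intron, gained, chr17:35646379-35646678: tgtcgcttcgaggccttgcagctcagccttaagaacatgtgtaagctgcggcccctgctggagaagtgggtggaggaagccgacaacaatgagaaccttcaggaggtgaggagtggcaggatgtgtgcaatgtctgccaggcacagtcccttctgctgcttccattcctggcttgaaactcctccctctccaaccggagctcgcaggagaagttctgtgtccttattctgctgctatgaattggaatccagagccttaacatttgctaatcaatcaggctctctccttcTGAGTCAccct
The kept window lay in a broad domain of 28.5 kb over Ywhag, a 14-3-3 adaptor protein gene, with scores of 574.4, 485.7, 720.1 and 492.7 in day order. The lost window had scores of 93.1 and 58.8 in D6T+ and D9T+ and no peak later. The gained window had no peak in D6T+ and D9T+ and scores of 260.9 and 293.2 in D12S- and D16S-. Intron or intergenic was decided at the midpoint of the peak alone. The Pou5f1 window begins in coding sequence of Oct4 and runs on into the intron, so it is not intronic throughout. The lost and the gained peak stood on high input, at 2.53 and 2.18 times the input, so the strongest windows with at least 4 times the input were added after the values were seen.
Gli3 intron, lost, chr13:15677716-15678015: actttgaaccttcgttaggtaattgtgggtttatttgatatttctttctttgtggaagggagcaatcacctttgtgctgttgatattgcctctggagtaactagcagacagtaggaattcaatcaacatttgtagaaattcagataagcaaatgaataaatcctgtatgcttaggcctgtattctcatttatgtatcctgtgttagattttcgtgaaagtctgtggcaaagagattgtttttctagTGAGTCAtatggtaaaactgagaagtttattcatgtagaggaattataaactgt
Sp2 intron, gained, chr11:96841550-96841849: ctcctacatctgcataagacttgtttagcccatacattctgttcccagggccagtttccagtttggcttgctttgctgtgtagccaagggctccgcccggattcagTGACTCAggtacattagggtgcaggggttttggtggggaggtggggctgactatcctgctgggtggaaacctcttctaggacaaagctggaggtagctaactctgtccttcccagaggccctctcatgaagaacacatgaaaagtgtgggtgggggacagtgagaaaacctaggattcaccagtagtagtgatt
The window in Gli3, a transcription factor of Hedgehog signalling, scored 70.5, 33.6 and 34.8 before its peak was lost in D16S-. The window in Sp2, a zinc finger factor of the Sp family, had no peak in D6T+ and scored 40.7, 89.8 and 82.4 afterwards.

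To find which H3.3 peaks stayed in the unsuccessful fractions, each peak of an earlier library was looked for in a later one, by an overlap of at least 1 bp. Of the D6T+ peaks, 46.9% (95% Wilson interval 46.5% to 47.3%) had a D16S- peak, so 32202 were lost and 37221 D16S- peaks were new. Wilson intervals and the Poisson intervals given later cover counting error only. Step by step, 51.2% of the D6T+ peaks were kept in D9T+, 70.0% of the D9T+ peaks in D12S-, and 42.7% of the D12S- peaks in D16S-. With equal numbers the steps became 50.2%, 66.4% and 53.6%, and 45.6% of D6T+ peaks were kept in D16S-. The share of the last step was thus higher once D12S- was held to the same number of peaks.

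What was kept were mostly peaks of high score, and the score, which is not divided by length, rises with the length of a peak. Of the 6061 D6T+ peaks with the highest scores, 96.8% were kept in D9T+ and 93.4% (92.8% to 94.0%) in D16S-, whereas of the 30309 with the lowest scores 29.8% and 27.1% (26.6% to 27.6%) were kept. In the other steps the 6061 strongest peaks were kept at 99.4%. D6T+ peaks kept in D16S- had a median score of 16.1 and a median length of 1032 bp, and lost ones 8.15 and 500 bp. The median fold over input was 4.38 for kept and 4.52 for lost peaks, so kept peaks were longer but not more enriched. A long peak also meets an overlap of 1 bp more easily. Among peaks with at least 4 times the input, 28.3% of the D6T+ peaks were kept in D16S-. Gained D16S- peaks resembled the lost ones, with a median score of 8.29 and 500 bp. Still, the lost peaks reached a score of 285.8 and the gained ones 293.2. The promoter class, from 1 kb upstream to 100 bp downstream of a start site, took 8.59% of kept, 3.25% of lost and 6.19% of gained peaks, and introns took 59.9% of the lost peaks.

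**Figure D1:**
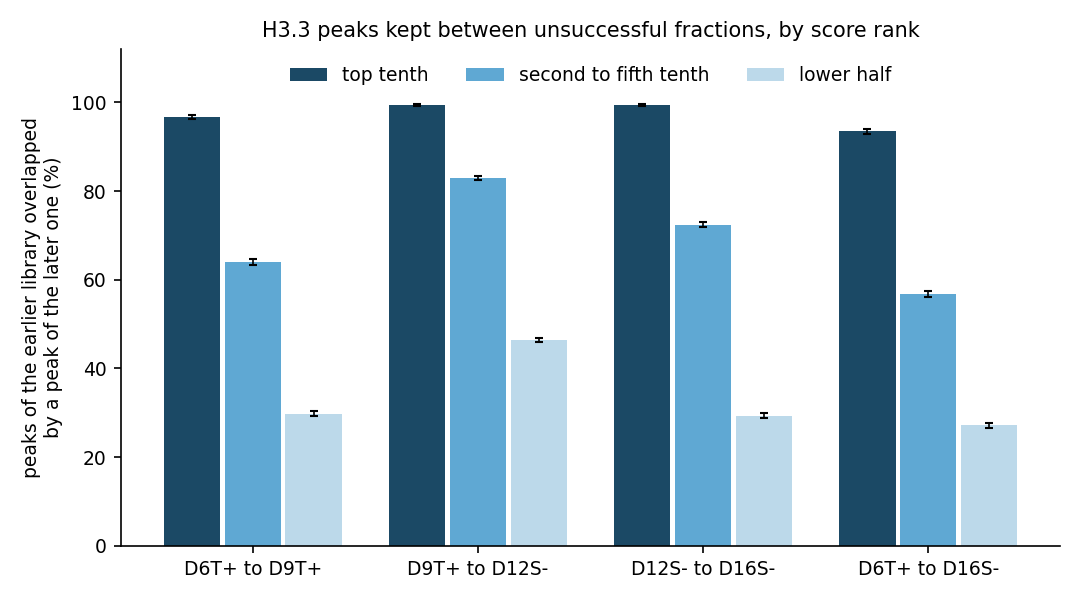
Share of H3.3 peaks (%, bars with 95% Wilson intervals) of an earlier unsuccessful fraction that were overlapped by a peak of a later one, by score rank, with 60618 top peaks from each library. The 6061 strongest peaks were kept at 93.4% or more in every pair shown, the 30309 weakest at 46.4% or less.

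Merging the peaks of the 4 libraries gave 130842 regions, of which 18042 had a peak in all 4 and 74964 in 1 library only. A region is called a lasting loss when its peaks ended after D6T+, D9T+ or D12S- without a gap. It is called a lasting gain when they began in D9T+ or D12S- and stayed to D16S-, or began in D16S-. Gains that began in D16S- have no later library to show that they last. There were 22041 lasting losses and 28022 lasting gains, but with peaks of equal covered length the order turned, with 30197 losses and 16850 gains. With equal numbers of peaks the counts were near each other, 24179 losses and 24676 gains, beside 17117 regions in all 4. Most losses, 17554, were seen in D6T+ alone, and most gains, 13777, in D16S- alone. Regions seen in 1 library were about as common in the middle of the course, with 13078 in D9T+ alone and 15475 in D12S- alone. Such losses and gains cannot be told apart from regions called in 1 library only. Kept regions were long, with a median of 3805 bp, against 627 bp for losses and 761 bp for gains.

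To see where these regions came from, those at equal numbers of peaks were compared with all peaks of samples outside the course. These samples were not cut to equal numbers. D0 held 89614 H3.3 peaks, D6T- 82669, D9T- 68309, iPSCs 81542 and D16S+ 33972. Of the lost regions, 55.5% (54.8% to 56.1%) had an H3.3 peak in D0 fibroblasts, against 30.8% (30.2% to 31.3%) of the gained ones. The order was the opposite in iPSCs, with 16.7% of the lost and 34.7% of the gained regions. Peaks of H3K4me3, the mark of active promoters, were found in iPSCs at 6.41% of lost and 19.4% of gained regions. H3K36me3, the mark of transcribed gene bodies, covered 31.0% of lost and 22.6% of gained regions in D0. Kept regions were overlapped most, 89.4% by D0 and 68.7% by iPSCs, but they were also the longest.

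These shares differed by the day of the change. Of regions gained in D9T+, 82.3% had a peak in D6T- and 83.5% in D9T-, the fractions on the successful route, and 53.6% in iPSCs. Of regions gained only in D16S-, 23.3% had a peak in D6T- and 23.1% in iPSCs. Regions lost after D12S- had a D0 peak in 76.8% of cases, and regions seen in D6T+ alone in 48.4%. Those lost after D12S- had an iPSC peak in 37.0%, and those seen in D6T+ alone in 12.8%. Regions seen in 3 libraries were longer than those seen in 1, with medians of 2096 bp for gains in D9T+ and 1925 bp for losses after D12S- against 500 bp, so length was not equal between these classes and its part was not tested.

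**Figure D2:**
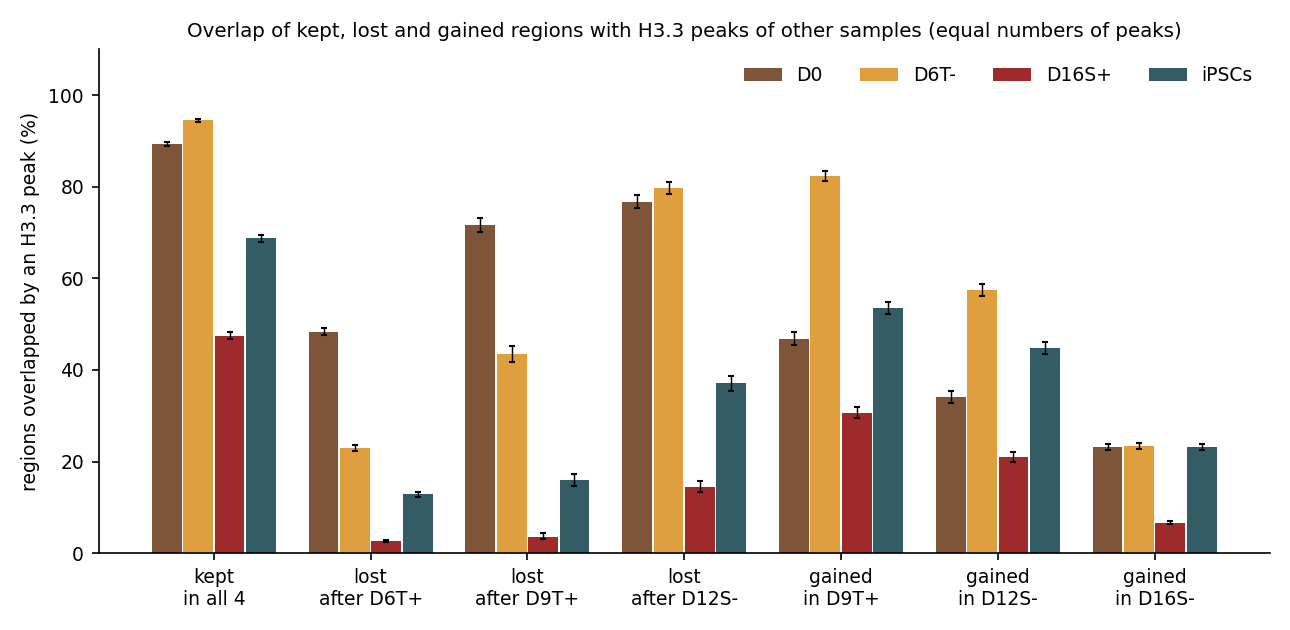
Share of kept, lost and gained regions (%, bars with 95% Wilson intervals, 60618 peaks from each unsuccessful fraction) overlapped by an H3.3 peak of D0, D6T-, D16S+ or iPSCs, grouped by the day of loss or gain. All peaks of the other samples were used. D0 overlapped 76.8% of the regions lost after D12S-, and D6T- overlapped 82.3% of those gained in D9T+.

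A gene was called bound where the midpoint of a peak lay between 1 kb upstream of its start and 1 kb past its end. Of 22367 protein-coding genes, 11320, 11683, 13461 and 12118 were bound in day order. In all 4 libraries 8983 genes were bound (40.2%), 2043 were lasting gains (9.13%) and 1038 lasting losses (4.64%). Of the gains, 1060 began in D9T+, 660 in D12S- and 323 in D16S-, and of the losses 303 ended after D6T+, 146 after D9T+ and 589 after D12S-. Equal numbers gave 1816 gains (8.12%) and 1223 losses (5.47%). Counting any overlap of a peak with the gene gave 1901 gains (8.5%) and 866 losses (3.87%). With equal covered length the order turned, with 1104 gains and 1845 losses. Of the lost genes 78.5% were bound in D0 and 32.2% in D16S+, and of the gained genes 59.5% and 45.4%. For comparison, D16S+ bound 9298 of all 22367 genes.

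The midpoint rule can miss a small gene inside a broad domain whose centre moved. The 5 strongest genes of each of the 6 patterns were chosen, 30 in all, and 22 of them had a peak over the gene in all 4 libraries when any overlap counted. These included Bax, a promoter of cell death, Cd68, a lysosomal protein gene, the ferritin genes Fth1 and Ftl1 and several histone genes such as Hist1h2bg. Inside the gene, Bax scored 133 in D6T+ and 119 in D16S-, Ftl1 67.7 and 83.1, and Fth1 80.5 and 37.6. The remaining 8 kept their direction: Tnc, Bmper, Adam23, Pipox, Irgm1, Pou5f1, Igtp and Psmb8. A gain or loss was therefore trusted more where it held for all peaks, for equal numbers, for any overlap, for both together and for the nearest start site. This was so for 1153 of 2043 gains (56.4%) and 532 of 1038 losses (51.3%), and the genes of that kind named below were chosen after their values were seen.

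Among the 15 losses of that kind with the highest scores in D6T+ were the following genes. Tnc, the matrix protein tenascin C, had a score of 1975 in D0, 284 (exact 95% Poisson interval 262 to 308) in D6T+, 107 in D9T+ and 9.15 in D12S-, and no peak in D16S-. Il1r1, the interleukin-1 receptor, scored 613 in D0 and then 145, 74.6 and 6.04 before it was lost. Fgf7, a stromal growth factor, scored 105, 133 and 21.8 before it was lost. In Tnc and Il1r1 each library was lower than the one before it, while Fgf7 was highest in D9T+.

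Other lost genes varied in how they changed before D16S-. Ifngr2, a subunit of the interferon gamma receptor, scored 61.5, 54.8 and 47.8 and had no peak in D16S-. Sh3kbp1, an adaptor in receptor uptake, scored 88.3, 35.6 and 99.1, and Lrig2, a membrane protein, 61.9, 40.1 and 78.1. Bmper, which binds bone morphogenetic proteins, scored 134, 46.3 and 39.9. Ptgs1, the cyclooxygenase that is expressed in many tissues, scored 81.6, 46.3 and 8.97, and Inhba, the activin subunit induced by TGF-beta, scored 52.1, 8.91 and 37.5. These 6 genes had no peak in D16S- and were all bound in D0. Sh3kbp1 and Lrig2 were highest in D12S-, and the other 4 were highest in D6T+.

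Among the 15 strongest gains of that kind, 8 are genes known to be induced by interferon: Irgm1, Irgm2, Igtp, Tgtp1, Gbp7, Oas2, Xaf1 and B2m. Irgm1, an immunity-related GTPase of the defence against intracellular microbes, had no peak in D6T+ and scored 124, 160 and 230 (210 to 252) afterwards. Igtp, of the same family, appeared later and scored 16.3 in D12S- and 201 (182 to 222) in D16S-. Xaf1, a pro-apoptotic factor, scored 43.0, 94.8 and 161. By summed score, Irgm1, Irgm2, Igtp, Tgtp1, Gbp7 and Xaf1 were highest in D16S-, and Oas2 and B2m in D12S-. Over 10208 genes bound in both, the median log2 ratio of D16S- over D12S- was -0.88. The named genes were picked for strong scores, so they cannot be set against that median like a sample of all genes.

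The other strong gains were of mixed kinds. Adam23, a cell surface protein of neurons, scored 0 in D6T+ and then 53.4, 549 and 285. Pipox, a peroxisomal oxidase, scored 156, 309 and 232, and L1td1, an RNA-binding protein of pluripotent cells, 48.3, 331 and 145. Mal, a membrane protein of polarised epithelia, scored 21.4, 253 and 150.5. Rab27a, a GTPase of vesicle release, scored 88.4, 178 and 157. Each of these peaked in D12S-, the library with the most tags in peaks.

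Genes bound in both D6T+ and D16S- were compared by their summed score. Among 8689 genes bound in both D6T+ and D16S- with at least 20 tags per 10 M in either, 613 were at least 4-fold higher in D16S- (7.05%) and 348 at least 4-fold lower (4.01%). The median log2 ratio was 0.18, and relative to it the counts became 473 higher and 437 lower. The median log2 ratio was 0.95 from D9T+ to D12S- and -0.88 from D12S- to D16S-, and single genes in D12S- have to be read against that shift.

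The genes bound in all 4 with the highest ratios were Afap1l2, Fam162a, Itpk1, Epas1 and Nupr1. Afap1l2, an adaptor of Src signalling, scored 6.98, 144, 323 and 252, a log2 ratio of 5.17 from D6T+ to D16S-. Epas1, the hypoxia-inducible factor 2 alpha, scored 6.98, 39.0, 277 and 178, and Fam162a, a target of hypoxia signalling, 9.31, 71.5, 472 and 308. Itpk1, an inositol phosphate kinase, scored 8.61, 68.2, 555 and 239. In these 4 genes every later library was above D6T+ and D12S- was highest. Their D6T+ scores lay near the lowest score of a D6T+ peak, 5.59, so the size of the ratios depends on the calling limit.

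Those with the lowest ratios were Lama1, Col1a2, Fam20a, Ppp2r2b and Slc35b2. Lama1, a laminin chain of basement membranes, scored 293, 279 and 364 and then 7.32 in D16S-, although D16S+ and iPSCs scored 324 and 673. Col1a2, a chain of type I collagen, was lower at each step, with 250, 129, 57.3 and 6.59, a log2 ratio of -5.24. The D16S- scores of Lama1 and Col1a2 lay near the lowest score of a D16S- peak, 5.37. For Nupr1, Fam20a and Slc35b2 the score inside the gene differed by less than 4-fold. Hmga2, a chromatin protein of embryonic mesenchyme that was picked after its values were seen, held the strongest peak of any protein-coding gene in D6T+, and its summed score was 2061, 1280, 1412 and 615.

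Listed genes of the interferon response had the highest share of lasting gains of the 21 lists. Of 25, 12, 19, 20 and 22 were bound in day order. Lasting gains numbered 10, or 40% (all genes 9.13%), and lasting losses 0. With equal numbers 12, 19, 20 and 21 were bound, with 10 gains and 1 loss. D0 bound 20, D3 12, D6T- 15 and D16S+ 14 of the 25, and D16S- was the highest of these. The libraries differ in how many genes they bind: over all genes D16S- bound 12118, D6T- 12817 and D16S+ 9298. Of the 10 gains, 6 appeared already in D9T+, within the Thy-1+ sort.

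Among the listed genes bound in all 4 libraries were factors and a sensor of the pathway. Stat2, a transcription factor of the type I response, scored 35.6, 162, 253 and 197. Irf1, an inducible activator, scored 17.0, 105, 165 and 199. Ddx58, the RNA sensor RIG-I, scored 30.5, 100, 215 and 182. Of the 12 genes bound in both D6T+ and D16S-, 6 were at least 4-fold higher in D16S- (all genes 7.05%). Among them were these 3, Isg15, a ubiquitin-like modifier, and Gbp2. The median log2 ratio of the 12 was 2.00 against 0.16 over all genes. Ifit2 and Ifit3, which block viral RNA translation, went the other way, with log2 ratios of -2.92 and -2.69: Ifit2 scored 66.4, 30.5, 48.3 and 8.78.

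Effectors and antigen presentation gained peaks. Oas2, which makes the activator of RNase L, had no peak in D6T+ and scored 10.7, 178 and 107 afterwards. B2m, the light chain of MHC class I, scored 15.8, 97.7 and 69.8. Tap1, the peptide transporter, scored 7.35, 62.0 and 87.7. Psmb8, a subunit of the immunoproteasome, had its first peak of 73.6 in D16S- by the midpoint rule and in D12S- by any overlap. Psmb8, Psmb9 and Tap1 are neighbours on chr17 and can share peaks, so they are not independent.

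Families of such genes, put together after the first values were seen, gave the following counts, to be read beside the 9.13% of all genes with a lasting gain and the 4.64% with a loss. Of 8 immunity-related GTPases, 1 was bound in D6T+ and 5, 7 and 6 in the later libraries, with 5 lasting gains. For reference, D0 bound 3 of these GTPases, D6T- 3, D16S+ 4 and iPSCs 2. Of 12 genes of the Oas family, 1, 3, 9 and 9 were bound, with 8 gains. Their number rose on the successful route as well, with 1 bound in D6T- and 9 in D16S+. D0 bound 5 of the 12 and iPSCs 9, so the Oas rise was not limited to the unsuccessful fractions. Of 22 genes of class I presentation, 9, 11, 15 and 17 were bound, with 9 gains and 1 loss. Here D6T- bound 11 and D16S+ 7, while D0 bound 13 and iPSCs 16, close to the 17 of D16S-. Of 11 guanylate-binding proteins, 3, 6, 5 and 5 were bound and 5 in none, with 2 gains, or 1 with equal numbers. Among them Gbp2 scored 7.91, 19.8, 34.9 and 154, Gbp3 8.15, 16.5, 43.7 and 95.4, and Gbp7 0, 19.8, 49.2 and 136. Class II presentation stayed low: 0, 1, 2 and 1 of 10 genes were bound, and H2-Aa and H2-Eb1 had no peak in D16S-. Tgtp1 and Tgtp2, the Oas1 copies and the H2 genes are near-identical, and reads at several places were removed, so their values are uncertain. Igtp and Irgm2 also share much of their promoter sequence. The Oas gains all lay on chr5 and the GTPase gains on chr11, where neighbours can share peaks, so the members of a family are not independent.

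In the receptors the picture was mixed. Ifngr1 and Ifngr2, both subunits of the interferon gamma receptor, lost their peaks in D16S-: Ifngr1 scored 9.54, 14.9 and 18.3 before. Ifnar2, of the receptor of type I interferons, stayed bound with 109, 91.7, 144 and 72.4. The kinases Jak1 and Jak2 stayed bound too, with 97.8 and 84.1 in D6T+ and 115 and 187 in D16S-.

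Because immune cells carry many of these genes, markers of blood cells were read beside them. Of 16 macrophage genes, 7, 4, 9 and 6 were bound, and Lyz2, Tyrobp, Emr1 and C1qa to C1qc had no peak in any of the 4 libraries. Their summed score was 303 in D6T+ and 82.5 in D16S-. Of 20 blood cell genes, 8, 10, 12 and 9 were bound, Ikzf1 and Gata1 in no library, and Ptprc, the pan-leukocyte antigen, only in D9T+ with 8.02. Their summed score was 624 in D6T+ and 826 in D16S-, of which Runx1, a factor also used outside blood, made up 488 and 621. Each list had 2 lasting gains, 12.5% of the macrophage and 10% of the blood cell genes (all genes 9.13%). The macrophage genes bound in D16S- were Csf1r, Itgam, Fcer1g, Laptm5, Cd14 and Cx3cr1, at 8.54 to 22.2, and the blood cell genes besides Runx1 and Csf1r were Itga2b, Coro1a, Myb, Lyl1, Vav1, Cd34 and Lcp1, at 7.81 to 65.3. Ptprc, Lyz2, Tyrobp, Emr1, Ikzf1 and Gata1 had no peak there. The part of blood cells in the interferon values was not tested.

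The letters at the start sites of these genes were examined as well. The interferon-stimulated response element (ISRE, searched as GAAA, any 2 bases and GAAA, on both strands) is bound by factors of the Irf family. It lay between 250 bases before and 50 after the start in 3.78% of all 22367 genes, in 13 of 25 listed interferon genes (52%) and in 5 of the 10 that gained. Over all 2043 gains its share was 4.16% (3.38% to 5.12%) and over the losses 2.02% (1.33% to 3.07%). It was highest, 5.03% (4.55% to 5.55%), in genes bound in none of the 4 libraries, and 3.06% (2.72% to 3.44%) in genes bound in all 4. The share over all gains was thus near that of all genes. The gamma-activated site (TTCNNNGAA) was found in 7.94% of all promoters and in 7.88% of the gains. The promoters of 4 gained genes are shown, taken only from gained genes that hold the element. They are given on the strand of the gene in build mm9, with the element in capitals, read from the genome at GENCODE starts.
Oas2, chr5:121199813-121200112, minus strand: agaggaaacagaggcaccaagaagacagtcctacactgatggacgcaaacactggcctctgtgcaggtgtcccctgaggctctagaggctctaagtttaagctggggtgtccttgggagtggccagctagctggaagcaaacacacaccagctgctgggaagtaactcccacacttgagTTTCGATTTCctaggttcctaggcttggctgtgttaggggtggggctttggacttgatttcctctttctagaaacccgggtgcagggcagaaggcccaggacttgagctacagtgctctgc
B2m, chr2:121973172-121973471, plus strand: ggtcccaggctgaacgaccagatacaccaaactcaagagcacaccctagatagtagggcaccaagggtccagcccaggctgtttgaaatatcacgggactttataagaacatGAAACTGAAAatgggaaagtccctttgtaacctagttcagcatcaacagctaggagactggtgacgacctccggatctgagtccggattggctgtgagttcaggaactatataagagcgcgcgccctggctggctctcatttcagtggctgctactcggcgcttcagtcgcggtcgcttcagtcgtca
Igtp, chr11:58012808-58013107, plus strand: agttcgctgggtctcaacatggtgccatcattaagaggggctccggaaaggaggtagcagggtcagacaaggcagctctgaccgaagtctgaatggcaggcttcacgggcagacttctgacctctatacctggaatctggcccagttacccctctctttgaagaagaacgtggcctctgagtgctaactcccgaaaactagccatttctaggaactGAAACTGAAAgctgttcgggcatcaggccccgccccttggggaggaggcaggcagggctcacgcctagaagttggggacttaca
Gbp7, chr3:142193052-142193351, plus strand: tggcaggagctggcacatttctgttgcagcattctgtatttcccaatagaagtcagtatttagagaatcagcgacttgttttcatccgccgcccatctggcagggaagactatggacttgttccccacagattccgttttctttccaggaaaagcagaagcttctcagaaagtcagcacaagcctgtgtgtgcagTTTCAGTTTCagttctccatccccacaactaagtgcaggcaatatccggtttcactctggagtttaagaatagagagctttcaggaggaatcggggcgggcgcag
The element began at position -71 from the start in Oas2, -138 in B2m, -34 in Igtp and -55 in Gbp7. A match of letters is a description and not a site in use.

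**Figure D3:**
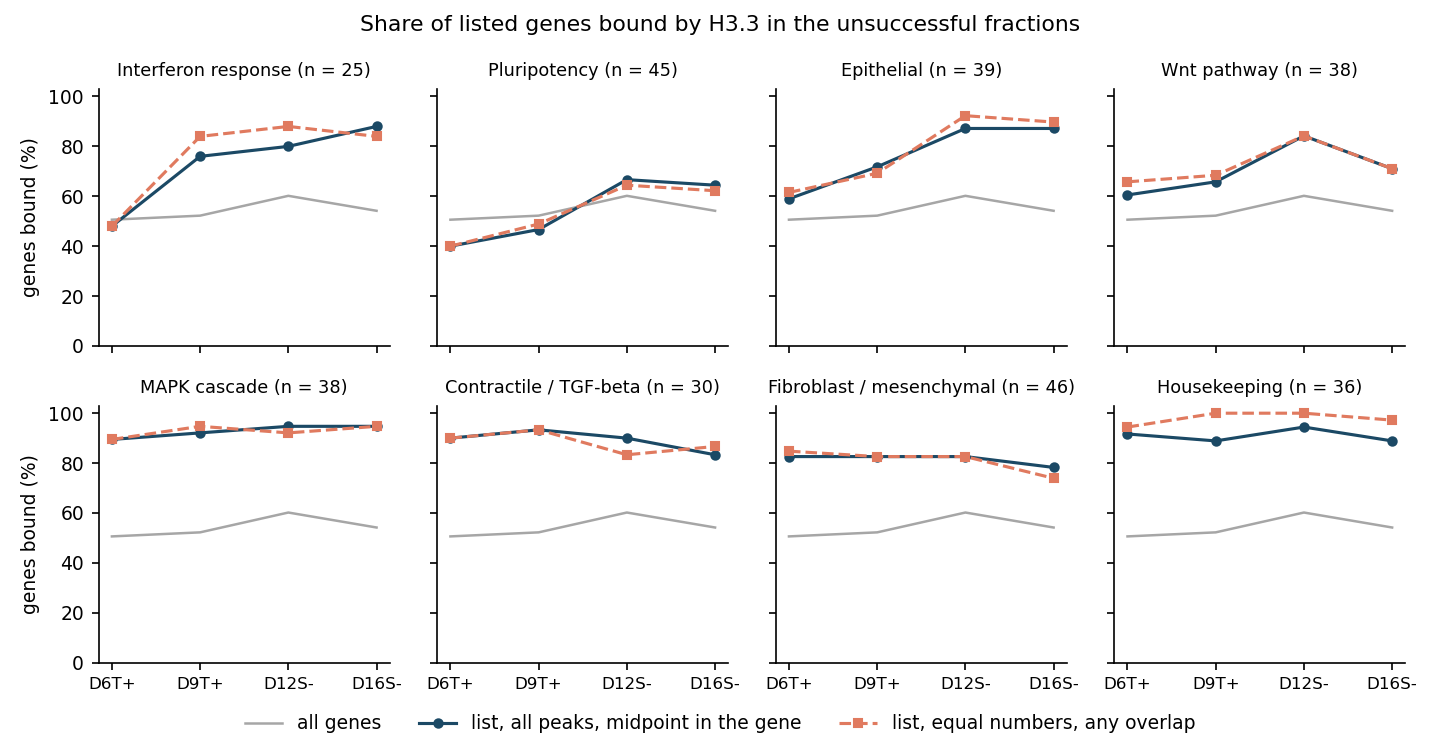
Share of listed genes bound (%) in the 4 unsuccessful fractions, with all peaks and midpoints in the gene (solid), with equal numbers and any overlap (dashed), and over all genes with all peaks (grey). Interferon genes went from 48% to 88%, fibroblast genes from 82.6% to 78.3% and housekeeping genes from 91.7% to 88.9%.

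Pluripotency genes gained peaks in part. Of 45, 18, 21, 30 and 29 were bound in day order, with 13 lasting gains (28.9%, all genes 9.13%). The 1 loss (2.22%, all genes 4.64%) was Dnmt3b, a DNA methyltransferase. D16S+ bound 34 and iPSCs 42. Gdf3, a ligand of the TGF-beta family, had no peak in D6T+ and scored 45.9, 72.5 and 55.9, and Sall4, a zinc finger factor, 32.8, 148 and 54.6. Zscan10, a partner of Oct4 and Sox2, scored 19.1, 67.2 and 54.4. These 3 genes were first bound in D9T+.

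Other pluripotency genes had low scores or no peak. Nanog had no peak in D6T+ and D9T+, 46.8 in D12S- and 7.32 in D16S-, against 177 in D16S+ and 218 in iPSCs. Esrrb, an orphan nuclear receptor with 571 in iPSCs, had no peak in any of the 4 libraries, nor had Zfp42, Dppa2, Dppa4, Nr5a2, Tdgf1 and Prdm14, and 12 of the 45 genes were bound in none. Among the 16 genes bound in both D6T+ and D16S- the median log2 ratio was 0.88, and 14 were higher. Fbxo15, an early marker of reprogramming, scored 28.1, 90.2, 238 and 106.

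The genes of the delivered factors need a separate reading, since their cDNAs were added by virus. Pou5f1, the gene of Oct4, had peaks in D12S- and D16S- with summed scores of 379 (356 to 403) and 353 (328 to 380). Those peaks were only 2.01 to 2.18 times their input, and the input within them was 12.5 to 20.3 times as dense as over all peaks of the library. In iPSCs the score was 5742, at 2.59 times the input and 25.5 times the density, while in ESD3, an embryonic stem cell line made without these viruses, the input was 0.97 times as dense. The part of added DNA in the Pou5f1 values was not tested. For Klf4, Myc and Sox2 the input in peaks was at most 2.36 times as dense in the 4 libraries. Klf4 scored 65.1, 42.1, 80.1 and 65.2, Myc 92.4, 56.1, 106 and 65.4, and Sox2 12.6, 0, 46.3 and 23.9, so D6T+ and D16S- were close for Klf4. In iPSCs Klf4 scored 63.4 and Sox2 52.8.

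Epithelial genes gained peaks and lost none. Of 39, 23, 28, 34 and 34 were bound, with 10 gains (25.6%, all genes 9.13%) and 0 losses, and equal numbers with any overlap gave 11 and 0. Epcam, an adhesion molecule, had no peak in D6T+ and scored 27.6, 43.5 and 78.5 (66.9 to 91.7). St14, the protease matriptase, appeared in D12S- with 113 and stayed at 108, and its inhibitors Spint1 and Spint2 were first bound in D9T+. Spint1 scored 15.1, 92.4 and 56.6. All 4 were bound in D16S+ as well.

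Junction genes bound from the beginning were higher at the end. Cdh1, the epithelial cadherin, scored 30.3, 38.5, 205 and 123. Dsp, which links desmosomes to keratins, scored 11.4, 123, 314 and 216, and Pkp3, another desmosomal protein, 8.38, 15.4, 128 and 109. Of the 20 epithelial genes with enough score in D6T+ or D16S-, 7 were at least 4-fold higher and 0 lower. Over all genes these shares were 7.05% and 4.01%. The median log2 ratio of the 23 epithelial genes bound in both was 1.35. D0 bound 22 and D16S+ 29 of the 39.

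Fibroblast genes mostly stayed bound, at lower levels in D16S-. Of 46, 38 were bound in D6T+, D9T+ and D12S- and 36 in D16S-, while D16S+ bound 15. There were 3 lasting losses by midpoint (6.52%, all genes 4.64%), Lox, Thy1 and Postn. The 1 gain (2.17%, all genes 9.13%) was Dcn, which had a peak over the gene in all 4 by any overlap. With equal numbers, 33 were bound in D16S- and the losses numbered 6. Of the 35 genes bound in both D6T+ and D16S-, 27 were lower in D16S-, with a median log2 ratio of -0.92. Among the 32 with enough score, 12 were at least 4-fold lower (all genes 4.01%) and 0 higher (all genes 7.05%). The summed score of the list was 8490 in D6T+ and 4379 in D16S-.

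The 12 genes that were at least 4-fold lower were Col1a2, Col3a1, Col5a1, Col5a2, Col6a1, Col6a3, Loxl1, Fbln2, Fbln5, Cdh2, Cdh11 and Twist2. Twist2, a factor of mesenchyme, scored 859 in D0 and 333 (309 to 358), 171, 55.2 and 46.8 in the course. Col1a1, lower by less than 4-fold, scored 229, 118, 98.7 and 78.5, and Col3a1 249, 229, 85.2 and 26.8. Cdh11, a mesenchymal cadherin, scored 143, 73.9, 35.7 and 6.10, and Cdh2, or N-cadherin, 209, 51.9, 59.6 and 13.7. In Twist2, Col1a1, Col3a1 and Cdh11 each library was below the one before, D12S- included. Of all 43 collagen genes, grouped after the values were seen, 33, 29, 31 and 28 were bound, with 6 losses and 1 gain, beside 4.64% and 9.13% of all genes.

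Other fibroblast genes held their level. Vim, the intermediate filament vimentin, scored 261, 361, 414 and 259. Fstl1, a secreted glycoprotein, scored 526, 735, 911 and 529, and Ddr2, a collagen receptor, 457, 656, 737 and 438. Fn1, or fibronectin, was higher later, with 55.2, 162, 564 and 214 after 1233 in D0. The list was thus not uniform.

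**Figure D4:**
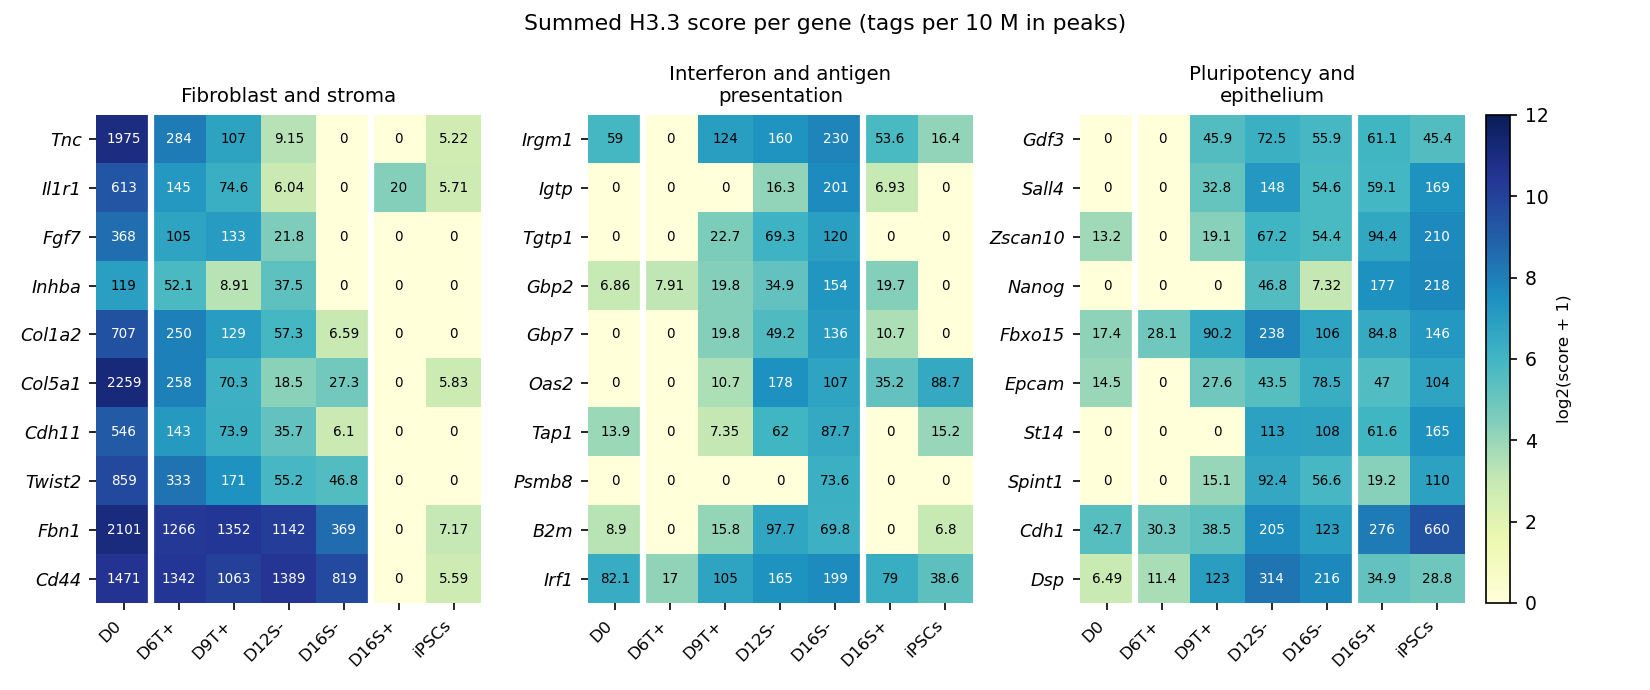
Summed H3.3 score per gene (tags per 10 M in peaks, printed in each cell, colour on a log2 scale) in D0, the 4 unsuccessful fractions, D16S+ and iPSCs for 30 genes chosen after their values were seen. In the course from D6T+ to D16S-, Twist2 went from 333 to 46.8, Irgm1 from 0 to 230 and Epcam from 0 to 78.5.

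The genes behind the sorting markers were read as a check of the sorts. Thy1, the gene of the Thy-1 antigen, scored 101 in D0, 33.1 in D6T+ and 38.3 in D9T+, and had no peak midpoint in D12S- and D16S-. By any overlap its score inside the gene was 28.8 in D6T+ and 2.32 in D16S-. Fut4, a fucosyltransferase that can make the SSEA-1 epitope, scored 11.2 in D6T+ only by midpoint, and Fut9, the enzyme of that reaction in embryonic cells, had no peak in the 4 libraries and 17.3 in iPSCs.

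Signalling genes were mostly bound from D6T+ on. Of 38 genes of the MAPK cascade, 34, 35, 36 and 36 were bound, and of 17 AP-1 and ATF genes 13, 14, 16 and 15. Over all genes 50.6%, 52.2%, 60.2% and 54.2% were bound. The MAPK list had 3 gains (7.89%, all genes 9.13%) and 1 loss (2.63%, all genes 4.64%). The AP-1 and ATF list had 2 gains (11.8%) and 0 losses. Fosl1 and Fosl2, Fos-related partners in AP-1, scored 190 and 338 in D6T+ and 75.9 and 300 in D16S-. Junb was bound by midpoint only in D9T+ and D12S-, but by any overlap in all 4, with 46.2 in D6T+ and 72.1 in D16S- inside the gene. Of 30 contractile and TGF-beta response genes, 27, 28, 27 and 25 were bound, with 2 gains (6.67%, all genes 9.13%) and 4 losses (13.3%, all genes 4.64%). The losses were Inhba, Ankrd1, Myl9 and Tgfb3. Ankrd1, a target of Yap, scored 36.3 and 7.57 before it was lost.

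Of 38 Wnt genes, 23, 25, 32 and 27 were bound, with 7 gains (18.4%, all genes 9.13%) and 3 losses (7.89%, all genes 4.64%). Among the ligands, Wnt5a, which acts mainly without beta-catenin, scored 175 in D0 and 35.8, 18.5 and 16.3 before its loss in D16S-, and Wnt7b 29.1 and 19.1 before its loss in D12S-. Wnt6 and Wnt10a gained peaks that reached 16.6 and 15.1 in D16S-, and so did the receptor gene Fzd5 with 54.2, which had a peak over the gene in all 4 by any overlap. The gained Wnt ligands stayed at low scores.

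Of 13 genes of H3.3 and its chaperones, 11 were bound in D6T+ and 13 in each later library. The 2 lasting gains were Atrx and Chaf1b (15.4%, all genes 9.13%), and with equal numbers there was 1 gain. H3f3a and H3f3b, which both encode H3.3, scored 156 and 72.6 in D6T+ and 215 and 145 in D16S-. Hira scored 76.3, 124, 226 and 73.3, and Daxx 74.4, 90.8, 80.3 and 115. Chaf1a, a subunit of the CAF-1 complex that deposits replicated H3, scored 90.3, 6.90, 65.1 and 14.1. Of 36 housekeeping genes, 33, 32, 34 and 32 were bound, and the median log2 ratio from D6T+ to D16S- was 0.05.

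Outside genes, motifs were counted in 300 bp at the centre of intergenic peaks and 5 kb away, on both strands. The AP-1 motif (TGANTCA) was found in 16.7% (15.8% to 17.6%) of lost, 14.2% (13.4% to 15.0%) of kept and 12.9% (12.2% to 13.6%) of gained windows, against 8.90%, 8.77% and 8.45% in their flanks. Lost and kept windows were those of D6T+ peaks and gained ones those of D16S- peaks. Over all intergenic peaks the share was 15.8% (15.3% to 16.4%) in D6T+ and 13.9% (13.4% to 14.4%) in D16S-, so the libraries differed as well. The octamer (ATGCAAAT), the motif of Oct factors, was found in 2.63% (2.32% to 2.98%) of gained windows against 2.04% (1.80% to 2.31%) in flanks, and in 1.99% of lost windows against 2.26%. TEAD motifs (GGAATG), used by partners of Yap, took 18.3% of lost and 18.7% of gained windows, and Sox motifs (ACAATNG) 10.4% and 10.6%. GC content was 44.6% in lost, 46.6% in kept and 46.2% in gained windows, and its part in these shares was not tested. Of the 4 motifs, AP-1 differed most between lost and gained windows in percentage points.

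**Figure D5:**
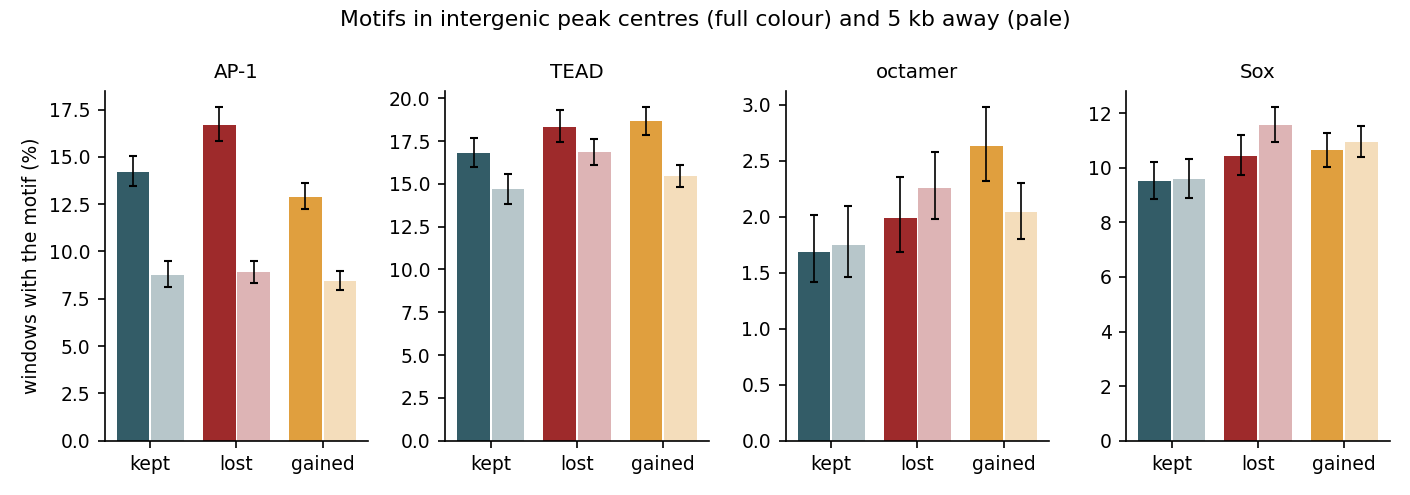
Share of 300 bp windows with a motif (%, bars with 95% Wilson intervals) at the centres of kept, lost and gained intergenic peaks (full colour) and 5 kb away (pale), each panel with its own axis from 0. AP-1 was found in 16.7% of lost and 12.9% of gained windows, above the flanks in each class.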

How the data were processed

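H3.3 ChIP-Seq libraries were mapped by the authors to mm9 with STAR, keeping reads with a single locus, and peaks were called with HOMER findPeaks in histone style for each library against its input, at 2 times the input or more. Tool versions were not given in the sources used here. The deposited Normalized Tag Count of a peak is a signal scaled by the authors to 10 M tags, not divided by length and with no input subtracted. The deposited fold is the ratio of tags to scaled input tags.

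Peaks on 21 chromosomes were used, leaving out 78 to 109 per library, with 22367 protein-coding genes of GENCODE on the same build. Of 526 listed symbols 523 matched. A gene's score was the sum over its peaks. Overlaps were computed in NumPy 2.4.6 and pandas 2.3.3, not in bedtools as planned, and checked against simulated intervals. Sequences were read with samtools 1.23.1. Peak p-values, other columns, input libraries and the transdifferentiation samples were not used.

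Members and lists were chosen with earlier results of these data known. Named genes were the 5 strongest of each lasting pattern, the 5 highest and lowest ratios, up to 4 gains and 4 losses per list, and a fixed set of markers. Those of low score are not all printed, and the genes held under every rule, the families and the genes of the heat map were chosen after values were seen. Alternatives were equal numbers of top peaks, ranking by score per kb, equal covered length, at least 4 times the input, autosomes only, other gene assignments and other overlaps. Without replicates no test was made. A member of the interferon list is counted but not reported here by name.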

Additional observations from a re-analysis of the deposited data

Results flagged for a closer look

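Between days 6 and 16 the number of bound genes moved in opposite directions in the unsuccessful fractions (D16S- minus D6T+) and in the successful ones (D16S+ minus D6T-) in 7 of the lists. These differences were not tested, since each fraction was 1 library. Over all genes the changes were 798 and -3519, and D16S+ had the fewest peaks, 33972, and 4.88% of its tags in peaks.

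The epithelial list changed by 11 bound genes in the unsuccessful fractions and by -1 in the successful ones, from 23 to 34 and from 30 to 29 of 39. The interferon list changed by 10 and -1, from 12 to 22 and from 15 to 14 of 25. The Wnt list changed by 4 and -13, and the MAPK list by 2 and -10. The list of H3.3 and its chaperones changed by 2 and -4, the neural list by 2 and -2, and the blood cell list by 1 and -1.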

How the results depend on the processing

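Of 63 alternatives computed for 10 results, 56 stayed within 1.5 times of the reported count. With equal covered length (69.9 Mb in each library), genes bound in all 4 numbered 5361, lasting losses 1845, lasting gains 1104 and regions in all 4 9901. This setting kept 13112 peaks of D12S-, since its peaks are long, and the order of gains and losses turned. With at least 4 times the input, 5982 genes were bound in all 4, 1631 were lasting losses, 2128 lasting gains, and 3973 regions were in all 4; this setting kept 47.0% of the D12S- peaks. Without D12S-, an alternative added after seeing the data, there were 9192 genes bound in the remaining libraries, 1359 losses, 2157 gains and 19286 regions. The equal number of top peaks, ranking by score per kb, autosomes only and the other gene assignments kept the reported order of more gains than losses over genes. The interferon list kept 10 gains with equal numbers and had 12 by nearest start site, and the epithelial list had 8 to 12. No paired analysis was possible because each group had 1 library and no result came from a test. Peaks near the calling limit depend on depth, which limits what a missing peak shows.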
